A study of Mus musculus with 34 samples.

Results

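The unfolded protein response and the integrated stress response were followed through 32 genes, of 47633 listed, in mouse skin before and after ionizing radiation. The genes were chosen by symbol, from knowledge of these pathways, and all 32 were found in both expression tables. They comprise 14 chaperones and folding enzymes of the endoplasmic reticulum (ER), 8 genes of ER-associated degradation, the sensors with Xbp1 (4 genes), and the branch from Atf4 to Ddit3 (6 genes). Total RNA of skin from mice aged 8 to 10 weeks was sequenced. The 18 back skin samples, taken while hair was growing, were of wild-type, Krt17 knockout or p53 knockout mice, either unirradiated (0 h) or 6 h or 24 h past a dose of 5 Gy. The 16 footpad samples were of wild-type or Krt17 knockout mice, either unirradiated (T0) or at T3, T6 or T9 past 40 Gy, points for which the labels give no unit. The labels do not say how the knockouts were made, in which cells the genes are missing, or the strain or sex of the mice. There were 17 groups of 2 samples, and the authors' tables hold 1 mean per group, in FPKM (fragment counts scaled to transcript length and to the mapped fragments of the library). No difference therefore has a replicate check, and sizes are given without a test or an error. A gene was counted as having risen or fallen where its log2 ratio of FPKM + 1 passed 2-fold.

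The unfolded protein response is the reaction of a cell to proteins that fail to fold in the ER. Its sensors Ern1, Atf6 and Eif2ak3 respectively splice the mRNA of Xbp1, release a transcription factor and slow translation, and the resulting factors raise ER chaperones and the machinery that removes misfolded proteins. Eif2ak3 and other kinases of the integrated stress response phosphorylate the initiation factor eIF2, which favours translation of Atf4, a transcription factor for amino acid synthesis genes, Ddit3 and other stress genes. Splicing of Xbp1 and translation of Atf4 are not measured by the level of their mRNA.

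In the check of the labels, Krt17 stood at 18.9, 14.7 and 29.9 FPKM in the Krt17 knockout columns of back skin, against 1650.3, 1358 and 1919 in wild type at 0, 6 and 24 h. In knockout footpad it reached 68.1 FPKM at T6 and 58.8 at T9, where wild type had 183 and 835. Trp53 mRNA did not separate the p53 knockout columns (25.8, 18.0 and 28.8 FPKM) from wild type (43.8, 19.3 and 21.5), and the labels do not say which part of the gene is deleted. Of 12 known p53 target genes, 6 in wild-type, 7 in Krt17 knockout and 0 in p53 knockout back skin rose at 6 h, with median log2 ratios of 1.02, 1.11 and -0.01. Of all genes, 4.96%, 2.71% and 3.14% passed 2-fold either way in these comparisons. The wild-type columns of back skin were shifted as a whole. The median log2 ratio of all genes was -0.15 at 6 h and -0.20 at 24 h there, against -0.04 and -0.09 in Krt17 knockout and 0.02 and 0.04 in p53 knockout skin. Ratios are therefore also given after each column was rescaled by its median ratio to the geometric mean column of the tissue.

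In back skin most ER chaperones were lower at 6 h and higher at 24 h, and part of the other genes shared the higher values at 24 h. Hspa5 (BiP), the main ATP-driven chaperone of the ER and a binding partner of its sensors, lies on chromosome 2 from 34771970 to 34777547 on the plus strand (GRCm38). At 0, 6 and 24 h it stood at 181, 137 and 291 FPKM in wild-type, 196, 147 and 323 in Krt17 knockout and 155, 124 and 299 in p53 knockout skin. All columns at 6 h lay below all columns at 0 h, and these below all columns at 24 h. Hsp90b1, the ER member of the Hsp90 family, stood at 115, 81.6 and 126 FPKM in wild-type, 114, 64.3 and 152 in Krt17 knockout and 128, 89.4 and 184 in p53 knockout skin. It had the same order of times within each genotype, although the wild-type value at 24 h was below the p53 knockout value at 0 h. Calr, a chaperone that binds the sugar chains of new glycoproteins, stood at 173, 142 and 219 FPKM in wild-type, 179.6, 128 and 228 in Krt17 knockout and 132, 111 and 215 in p53 knockout skin. Its 24 h columns lay above all others, while its p53 knockout control lay between the 6 h columns of the other genotypes.

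Creld2 and Sdf2l1, picked here after their values were seen, had the largest log2 ratios of 24 h over 6 h in wild-type and Krt17 knockout skin, while in p53 knockout skin Hspa5 lay between them. Creld2, an ER protein with thioredoxin-like motifs, stood at 27.9, 15.3 and 56.9 FPKM in wild-type, 30.0, 19.5 and 57.1 in Krt17 knockout and 24.8, 14.7 and 36.5 in p53 knockout skin. Sdf2l1, a partner of Hspa5 complexes, stood at 17.9, 12.4 and 36.1 FPKM in wild-type, 21.2, 10.7 and 36.2 in Krt17 knockout and 18.1, 10.2 and 27.6 in p53 knockout skin. For both genes the times did not overlap, which follows in part from how they were picked. The share of all genes with such an order was not counted, here or for Hspa5. For Creld2 and Sdf2l1 the p53 knockout value at 24 h was the lowest of the 3 genotypes.

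**Figure D1:**
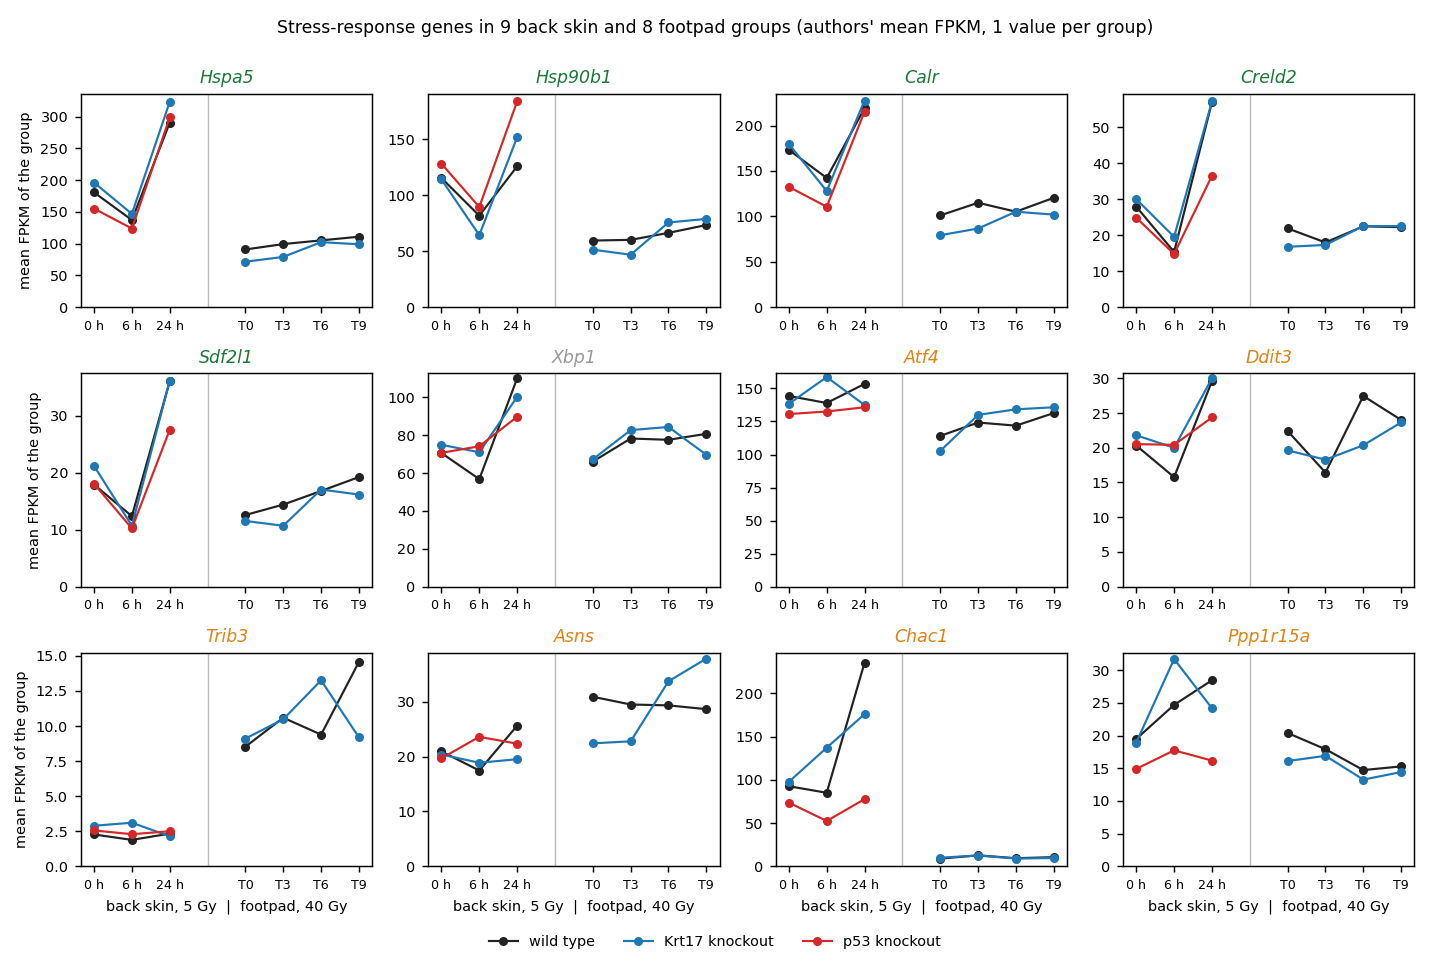
Mean FPKM of 12 genes in each group (vertical axes start at 0), with back skin at 0, 6 and 24 h left of the grey line and footpad at T0 to T9 right of it. Points are the authors' group means and lines join a genotype; Hspa5 dips to 137, 147 and 124 FPKM at 6 h and stands at 291, 323 and 299 at 24 h, while Chac1 reaches 235 FPKM in wild-type but 77.6 in p53 knockout skin at 24 h.

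At 6 h, 10 of the 14 chaperones were below their own control in all 3 genotypes, at any size, as were 26.8% of all genes compared. After rescaling these were 9 of 14 and 23.0% of all genes, Manf being the chaperone that changed side. Few of the declines were large. In wild-type skin 0 of 32 genes passed 2-fold (4.96% of all genes did) and 3 were at least 1.5-fold lower, beside 14.8% of all genes. In Krt17 knockout skin Pdia6, a protein disulfide isomerase, fell by 1.03 on the log2 scale from 133 to 64.7 FPKM, the only gene of the 32 past 2-fold where 2.71% of all genes passed. There 7 of the 32 were at least 1.5-fold lower, beside 6.17% of all genes. These include Derl3, which went from 0.737 to 0.136 FPKM and reached 1 FPKM only in columns at 24 h. In p53 knockout skin 0 of 32 passed 2-fold (background 3.14%), and 2 were at least 1.5-fold lower (background 4.74%). The median log2 ratio of the chaperones was -0.32 in wild-type, -0.53 in Krt17 knockout and -0.34 in p53 knockout skin, and -0.15, -0.47 and -0.37 after rescaling.

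The lowest members at 6 h were nearly all chaperones. In wild-type skin they were Hyou1, an exchange factor for Hspa5 (18.5 to 9.82 FPKM, log2 ratio -0.85), Creld2 (-0.83) and the disulfide isomerase Pdia4 (42.1 to 25.7 FPKM, -0.69). In Krt17 knockout skin they were Pdia6, Sdf2l1 (-0.93) and Pdia4 (52.6 to 27.5 FPKM, -0.91). In p53 knockout skin they were Sdf2l1 (-0.76), Creld2 (-0.71) and Hsp90b1 (-0.52). Dnajb9, a co-chaperone that returns Hspa5 to the sensor Ern1, went the other way, with 9.75 and 11.3 FPKM at 0 and 6 h in wild-type, 9.36 and 14.1 in Krt17 knockout and 9.77 and 15.7 in p53 knockout skin. Its log2 ratios at 6 h were 0.20, 0.54 and 0.63.

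At 24 h the comparison uses the same control column as at 6 h, so the values are set side by side. Above their control in all 3 genotypes were 10 of the 14 chaperones, against 12.1% of all genes compared, and 13 of 14 against 18.0% after rescaling. Over all 32 genes it was 17, and 24 after rescaling. The exception among the chaperones after rescaling was Canx, the membrane-bound relative of Calr, which ranged from 66.4 to 110.4 FPKM in back skin. The median log2 ratio of the chaperones was 0.41 in wild-type, 0.33 in Krt17 knockout and 0.49 in p53 knockout skin, and 0.64, 0.45 and 0.44 after rescaling. At 2-fold the count in wild-type skin was 2 of 32, Creld2 (log2 ratio 1.004) and Chac1, where 5.55% of all genes passed. It was 0 of 32 in Krt17 knockout (background 2.77%) and 0 of 32 in p53 knockout skin (background 1.97%). At least 1.5-fold higher were 6 of 32 in wild-type, the low Derl3 included (background 5.26%), 4 in Krt17 knockout (5.09%) and 2 in p53 knockout skin (2.89%). Hspa5 was among these in each genotype, with log2 ratios of 0.68, 0.72 and 0.94, the last being the largest of the 32 in p53 knockout skin.

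The contrast of 24 h with 6 h, which involves no control column, was wider. Between these times 13 of the 14 chaperones were higher at 24 h in all 3 genotypes, against 23.1% of all genes, with Dnajb9 as the exception. The median log2 ratio of the chaperones was 0.66 in wild-type, 0.84 in Krt17 knockout and 0.90 in p53 knockout skin, while the medians of all genes were -0.04, -0.05 and 0.01. In wild-type skin 6 of 32 genes rose at least 2-fold, Hspa5, Hyou1, Sdf2l1, Pdia4, Creld2 and Chac1, beside 2.99% of all genes, and 0 fell, beside 2.45%. In Krt17 knockout skin 5 rose, Hspa5, Hsp90b1, Sdf2l1, Creld2 and Derl3, beside 1.7% of all genes, and 0 fell, beside 1.46%. Derl3 reached the filter of 1 FPKM only in the 24 h columns of wild-type and Krt17 knockout skin. Its place among the 5 therefore follows in part from the filter. In p53 knockout skin 4 rose, Hspa5, Hsp90b1, Sdf2l1 and Creld2, beside 1.18% of all genes, and 0 fell, beside 2.04%. Hspa5 rose by log2 ratios of 1.08, 1.13 and 1.27, Sdf2l1 by 1.47, 1.67 and 1.35 and Creld2 by 1.83, 1.503 and 1.25 in the order of wild-type, Krt17 knockout and p53 knockout skin. In the last, 0.575% of all genes compared had a larger ratio than Creld2.

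**Figure D2:**
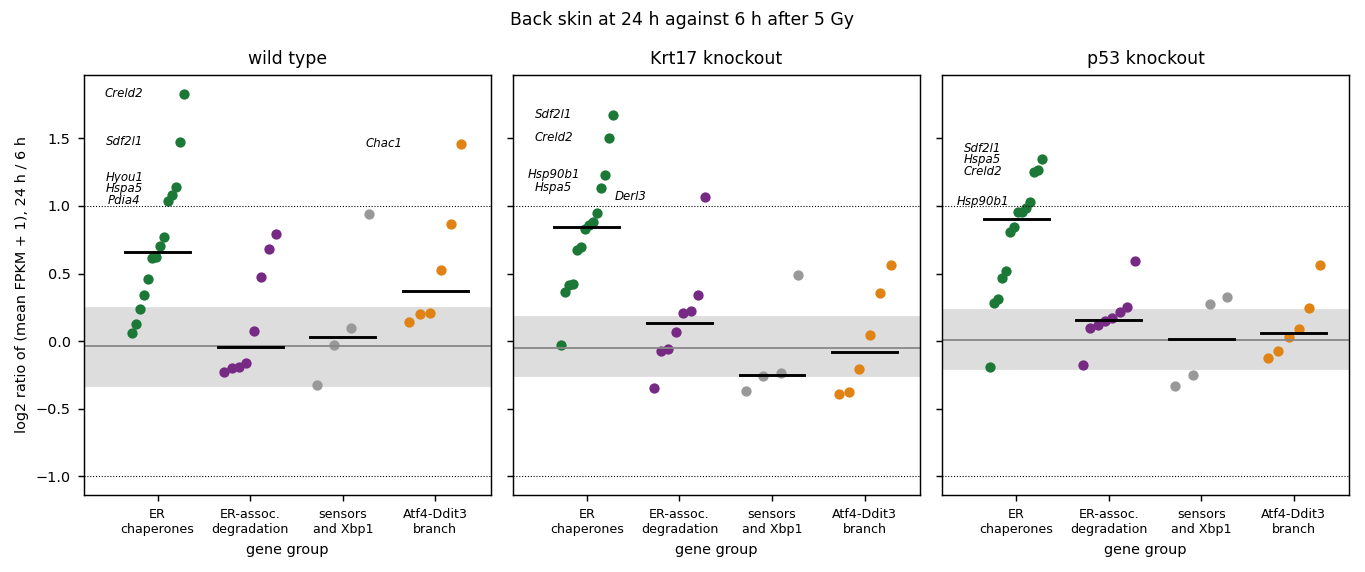
Log2 ratio of mean FPKM + 1 at 24 h over 6 h for each of the 32 genes (points) by gene group, with group medians (black bars), the median of all genes (grey line), their middle 50% (grey band) and the 2-fold limits (dotted); genes past 2-fold are named. The chaperone medians of 0.66, 0.84 and 0.90 lie above the band of all genes in each genotype, and the other groups spread around it.

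The remaining chaperones had smaller ranges. Pdia3, the disulfide isomerase that works with Calr and Canx, ranged from 111 to 162 FPKM in back skin, and Manf, a secreted ER factor, from 138 to 276. Dnajb11, a co-chaperone of Hspa5, ranged from 33.3 to 55.0 FPKM with its largest radiation response in wild-type skin at 24 h (log2 ratio 0.53). Dnajc3, another such co-chaperone, ranged from 12.1 to 22.6 FPKM with its largest response in p53 knockout skin at 24 h (0.48). The summed FPKM of the 14 chaperones gives the pattern in 1 number per column: 1149.5, 949.6 and 1549.7 in wild-type, 1262, 867 and 1596 in Krt17 knockout and 1096, 881 and 1621 in p53 knockout skin at 0, 6 and 24 h. As a share of all FPKM in the column, these were 0.135%, 0.104% and 0.142%, then 0.139%, 0.0868% and 0.149%, then 0.113%, 0.0941% and 0.185%. By that share, 24 h was close to 0 h in wild-type and Krt17 knockout skin, while 6 h stayed lowest in each genotype. In bulk tissue, more RNA per cell and more cells of a type that makes these proteins cannot be told apart.

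Promoter sequences are shown because many of these chaperones carry the same rare element. RefSeq promoters (GRCm38.p6, 250 bases before to 50 bases after the start of the gene) were matched for 28 of the 32 genes, and not for Hyou1, Manf, Derl1 and Atf6. The ER stress response element was searched on both strands as CCAAT, any 9 bases, and CCACG. It occurs in 0.119% of the 32851 promoters in the RefSeq table, which is 0.137% of the genes. Of the 28 genes it was found in 9, namely 7 of 12 chaperones, the degradation genes Syvn1 and Derl3, and 0 of the 6 genes of the Atf4-Ddit3 branch. The element was searched because it is known for this pathway, so its frequency among these genes is a description and no test. A second form, ERSE-II (ATTGG, any 1 base, CCACG), occurs in 0.0365% of promoters and was found for Dnajb11 and Herpud1. The sites of the first form in chaperone promoters are given 5′ to 3′ on the strand that carries the element, with its fixed letters in capitals, and Hsp90b1 has 2 of them.
Hspa5, chr2:34772025-34772043: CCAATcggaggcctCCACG
Hsp90b1, chr10:86705638-86705656: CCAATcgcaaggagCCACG
Hsp90b1, chr10:86705533-86705551: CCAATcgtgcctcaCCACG
Dnajc3, chr14:118937827-118937845: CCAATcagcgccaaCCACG
Pdia6, chr12:17266491-17266509: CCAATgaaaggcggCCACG
Calr, chr8:84847075-84847093: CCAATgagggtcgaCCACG
Canx, chr11:50325800-50325818: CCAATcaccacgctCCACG
Creld2, chr15:88819520-88819538: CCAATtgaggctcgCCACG

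The 250 bases before the RefSeq start of Hspa5 and of Creld2 show how these sites are placed. RefSeq starts Hspa5 at 34772090, inside the gene as GENCODE gives it above, so part of this window, the ER stress response element included, lies within the GENCODE gene. They are written on the strand of the gene, and since the element of Creld2 lies on the opposite strand, its capitals read as the reverse complement. The earlier capitals in Hspa5 are a second element of this pathway, searched as TGACGTG on both strands and present in 2.01% of promoters. No element sites of a promoter overlapped. A match of letters is a description and does not show that a factor binds.
Hspa5, chr2:34771840-34772089, plus strand: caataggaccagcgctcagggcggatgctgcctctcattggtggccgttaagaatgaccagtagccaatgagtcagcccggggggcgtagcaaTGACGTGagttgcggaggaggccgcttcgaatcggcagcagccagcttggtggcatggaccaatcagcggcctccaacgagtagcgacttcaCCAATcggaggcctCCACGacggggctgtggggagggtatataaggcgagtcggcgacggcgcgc
Creld2, chr15:88819396-88819645, plus strand: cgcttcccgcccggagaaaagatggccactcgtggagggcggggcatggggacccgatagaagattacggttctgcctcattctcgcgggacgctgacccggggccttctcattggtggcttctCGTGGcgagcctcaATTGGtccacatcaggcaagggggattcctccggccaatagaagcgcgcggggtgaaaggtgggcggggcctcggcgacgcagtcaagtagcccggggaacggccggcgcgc

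The 11 genes with either form of the element and the 17 matched genes without it were set side by side, as a description. From 6 h to 24 h their median log2 ratios were 0.62 and 0.24 in wild-type, 0.83 and 0.05 in Krt17 knockout and 0.47 and 0.17 in p53 knockout skin. The 11 include the low Derl3, which passed the filter only through columns at 24 h, so its part in these medians follows in part from the filter. The ranges overlapped in each genotype, and most of the genes with the element are chaperones. Sdf2l1, with the largest ratio in 2 of the genotypes, has neither form in this window, whereas Canx has the first form and stood at log2 ratios of 0.06, 0.36 and 0.31.

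The genes of ER-associated degradation shared in part the higher values at 24 h. From 6 h to 24 h, 4 of the 8 were higher in all 3 genotypes, namely Syvn1, Derl1, Derl2 and Derl3, beside the 23.1% of all genes. Above control at 24 h in all 3 were 3 of 8, and 5 of 8 after rescaling, beside 12.1% and 18.0% of all genes. Derl3 is part of each of these counts, although it passed the filter only through columns at 24 h. Below control at 6 h in all 3 were 2 of 8, Derl2 and Sel1l, and 1 after rescaling, Derl2. These were no larger shares than the 26.8% and 23.0% of all genes. Herpud1, a membrane protein of the degradation complex and the gene with both ERSE-II and an Atf4-type element, was the one with the clearest values at 6 h. It stood at 35.3, 47.9 and 40.8 FPKM in wild-type, 35.99, 46.6 and 44.3 in Krt17 knockout and 31.8, 39.7 and 35.04 in p53 knockout skin, so that its highest value in each genotype was at 6 h. Its log2 ratios at 6 h were 0.43, 0.36 and 0.31, and it was chosen after its values were seen. Derl2, a channel component for the removal of proteins from the ER, ranged from 15.7 to 30.1 FPKM with its largest response in wild-type skin at 6 h (-0.50). The related Derl1 ranged only from 58.5 to 68.7 FPKM, while Derl3 was low throughout, from 0.136 to 1.51 FPKM, and its rise between 6 h and 24 h in Krt17 knockout skin was from 0.136 to 1.38 FPKM. Syvn1, the ubiquitin ligase of the complex, ranged from 9.73 to 15.4 FPKM, and its partner Sel1l from 11.03 to 14.3. Edem1 and Os9, which recognise misfolded glycoproteins, ranged from 19.0 to 24.4 and from 21.8 to 28.4 FPKM. The group's median log2 ratio at 24 h was 0.13 in wild-type, 0.04 in Krt17 knockout and 0.14 in p53 knockout skin.

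Of the sensors and Xbp1, Xbp1 alone was above control at 24 h in each genotype, as were most chaperones and 12.1% of all genes. At 6 h it was below control in wild-type and Krt17 knockout skin but not in p53 knockout skin. Xbp1, the transcription factor made by splicing, stood at 70.6, 56.8 and 110.1 FPKM in wild-type, 74.97, 71.0 and 100.3 in Krt17 knockout and 70.7, 74.2 and 89.8 in p53 knockout skin. Its 24 h columns were the highest of each genotype, with log2 ratios over control of 0.63, 0.42 and 0.34, all below 2-fold. Ern1, the splicing enzyme, ranged from 2.92 to 4.72 FPKM, Eif2ak3, the eIF2 kinase of the ER, from 3.13 to 4.79, and Atf6, the membrane-bound transcription factor, from 6.61 to 9.54. Ern1 was lowest in wild-type skin at 24 h relative to its control (log2 ratio -0.49). Low FPKM compresses ratios of FPKM + 1, so changes of Ern1 and Eif2ak3 are understated.

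**Figure D3:**
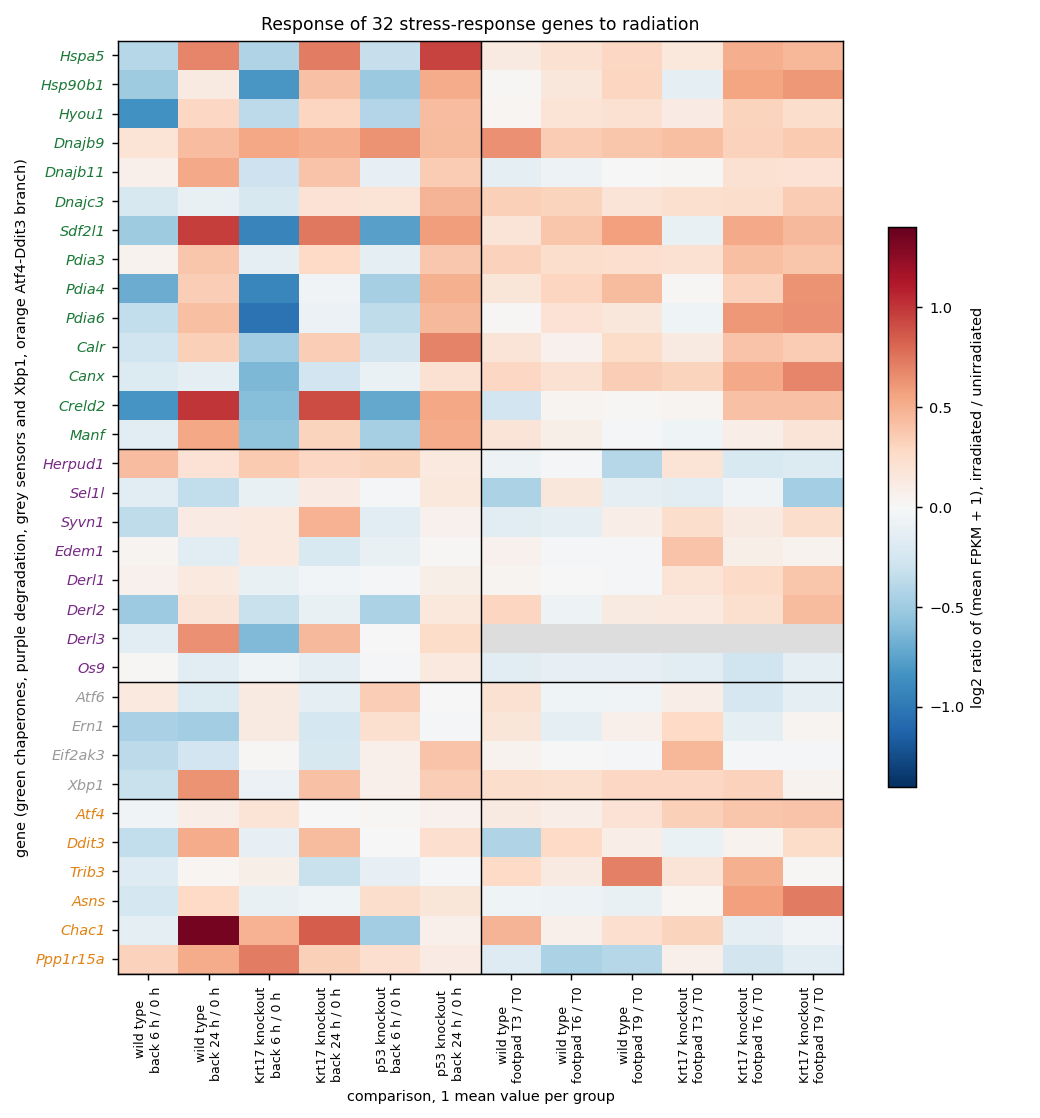
Log2 ratio of mean FPKM + 1 of irradiated over unirradiated skin (colour, red higher and blue lower) for the 32 genes (rows, by group) in the 12 radiation comparisons (columns, back skin left and footpad right); grey marks Derl3, below 1 FPKM in all footpad columns. Chaperone rows are mostly blue at 6 h and red at 24 h in back skin, and the darkest cell is Chac1 in wild-type skin at 24 h (1.34).

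Of the 6 genes of the Atf4-Ddit3 branch, 3 were above control at 24 h in all 3 genotypes (Ddit3, Chac1 and Ppp1r15a), and 5 after rescaling, all but Trib3, beside 12.1% and 18.0% of all genes. At 6 h only Ddit3 was below control in all 3, with and without rescaling, beside 26.8% of all genes and 23.0% after rescaling. From 6 h to 24 h Ddit3 and Chac1 were higher in all 3, which is 33.3% of the branch beside 23.1% of all genes. Atf4 itself stood at 144, 139 and 153 FPKM in wild-type, 138, 159 and 137 in Krt17 knockout and 131, 133 and 136 in p53 knockout skin, a range of 131 to 159. Its largest log2 ratio in back skin was 0.20, in Krt17 knockout skin at 6 h. Ddit3 (CHOP), the transcription factor tied to death after prolonged stress, stood at 20.3, 15.8 and 29.6 FPKM in wild-type, 21.8, 20.0 and 30.0 in Krt17 knockout and 20.5, 20.4 and 24.4 in p53 knockout skin. It was highest at 24 h in each genotype, with log2 ratios of 0.52, 0.44 and 0.24 that did not pass 2-fold. Ppp1r15a (GADD34), which directs a phosphatase to eIF2, stood at 19.5, 24.7 and 28.5 FPKM in wild-type, 18.9, 31.7 and 24.2 in Krt17 knockout and 14.9, 17.7 and 16.2 in p53 knockout skin. Its p53 knockout columns were the lowest of each time.

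Asns and Trib3 had small log2 ratios in back skin. That of Asns at 24 h was 0.28 in wild-type, -0.06 in Krt17 knockout and 0.17 in p53 knockout skin, and 0.51, 0.06 and 0.13 after rescaling, above control in all 3. Asns, which makes asparagine, stood at 20.9, 17.5 and 25.6 FPKM in wild-type, 20.4, 18.9 and 19.5 in Krt17 knockout and 19.7, 23.6 and 22.3 in p53 knockout skin. Trib3, a pseudokinase that restrains Atf4 and Akt, stayed between 1.88 and 3.10 FPKM, with 2.27, 1.88 and 2.33 in wild-type, 2.89, 3.10 and 2.14 in Krt17 knockout and 2.55, 2.28 and 2.496 in p53 knockout skin. The median log2 ratio of the 6 genes was -0.15, 0.14 and 0.01 at 6 h and 0.40, 0.16 and 0.09 at 24 h in wild-type, Krt17 knockout and p53 knockout skin. The value for p53 knockout at 6 h turned to -0.03 after rescaling.

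Chac1, which degrades glutathione and is a known target of Atf4, had the largest response of the 32 genes. It lies on chromosome 2 from 119351229 to 119354381 on the plus strand. It stood at 92.6, 85.001 and 235 FPKM in wild-type, 97.7, 137 and 176.03 in Krt17 knockout and 73.6, 52.3 and 77.6 in p53 knockout skin at 0, 6 and 24 h. The p53 knockout columns were the lowest at each time, and at 24 h they were separated most. The log2 ratio of 24 h over control was 1.34 in wild-type (1.58 rescaled), 0.84 in Krt17 knockout and 0.08 in p53 knockout skin, and 1.11% of all genes compared had a larger ratio in wild type. At 24 h the log2 ratio of p53 knockout over wild type was -1.59, and the p53 knockout response was 1.26 log2 units below the wild-type response (a difference of -1.26), with no test.

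The element that Atf4 is known to bind, the C/EBP-ATF response element, was searched on both strands as TGATG, any 1 base, and AA. It occurs in 3.97% of promoters and 4.51% of genes. It was found for 3 of the 6 genes of the branch, Trib3, Asns and Chac1, and for Herpud1. The sites are written with the fixed letters in capitals on the strand that carries them.
Trib3, chr2:152344039-152344046: TGATGtAA
Asns, chr6:7693225-7693232: TGATGaAA
Chac1, chr2:119351049-119351056: TGATGcAA

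The values of Chac1 were set beside those of hair shaft genes. The 9 hair shaft markers found, of 10 listed, summed to 6728, 6963 and 11174 FPKM in wild-type, 7241, 7673 and 10775 in Krt17 knockout and 4811, 3170.4 and 4469 in p53 knockout back skin at 0, 6 and 24 h. In footpad they summed to between 0.996 and 23.4 FPKM, with Krt31, Krt33b and Krt35 at 0 in some columns. Chac1 there stood at 8.78, 12.6, 9.25 and 10.51 FPKM in wild-type and 9.84, 12.4, 8.86 and 9.49 in Krt17 knockout skin at T0, T3, T6 and T9. Chac1 was thus high in the tissue and in the back skin columns where hair shaft genes were high, and the part of the hair content in its values was not tested.

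Between genotypes at 1 time, few of the 32 genes differed by 2-fold. In unirradiated skin it was 0 of 32 for Krt17 knockout back skin (background 1.6%), 0 of 32 for p53 knockout back skin (1.76%) and 0 of 31 for Krt17 knockout footpad (1.42%). At 6 h it was 0 of 32 for Krt17 knockout (2.12%) and 0 of 32 for p53 knockout back skin (5.17%). At 24 h it was 0 of 32 for Krt17 knockout (2.15%) and 1 of 32, Chac1, for p53 knockout back skin (6.08%). The p53 knockout value next to it was that of Ppp1r15a, with a log2 ratio of -0.78 to wild type, 16.2 against 28.5 FPKM. In irradiated Krt17 knockout footpad it was 0 of 31 at T3 (2.37%), T6 (2.67%) and T9 (2.26%).

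Other cell types also varied between the columns of back skin. The 10 fibroblast markers summed to 2141, 1336 and 740 FPKM in wild-type, 1703, 1207 and 873 in Krt17 knockout and 1076, 1669.8 and 1161 in p53 knockout skin at 0, 6 and 24 h. The sum was lowest at 24 h in wild-type and Krt17 knockout skin and highest at 6 h in p53 knockout skin, whereas the chaperone sum had its lowest value at 6 h and its highest at 24 h in each. The 8 plasma cell markers found, of 9 listed, summed to 241, 214 and 254 FPKM in wild-type, 226, 186 and 237 in Krt17 knockout and 214, 145.5 and 215 in p53 knockout skin, with Tnfrsf17 and Pou2af1 at 0 in some columns. This sum had the same order of times as the chaperone sum in each genotype, lowest at 6 h and highest at 24 h. In p53 knockout skin, however, the values at 0 and 24 h were nearly equal (214 and 215 FPKM). In footpad the sum was still 165 FPKM in Krt17 knockout at T9 and 177 in wild type at T6, where Jchain was at 0. Which cells the sum follows was not tested. The 10 skeletal muscle markers summed to between 2831 and 7428 FPKM, and the 10 neutrophil markers to between 84.0 and 840, the highest in p53 knockout skin at 6 h. The part of these cell types in the chaperone values was not tested.

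In footpad after 40 Gy no gene of the 31 that reached 1 FPKM passed 2-fold. The counts were 0 of 31 in wild type at T3 (background 3.1%), T6 (3.81%) and T9 (4.78%), and 0 of 31 in Krt17 knockout at T3 (3.12%), T6 (6.23%) and T9 (3.95%). Hspa5 stood at 90.6, 99.2, 105 and 111 FPKM in wild-type and 71.4, 78.9, 102 and 98.9 in Krt17 knockout skin at T0, T3, T6 and T9. Hsp90b1 stood at 59.4, 60.0, 66.3 and 73.3 FPKM in wild-type and 51.3, 46.7, 75.6 and 78.7 in Krt17 knockout skin, and Calr at 101, 115, 105 and 120.4 in wild-type and 79.1, 86.5, 105 and 102 in Krt17 knockout skin. Wild-type values were highest at T9 for all 3 genes, and dose and times differed from those in back skin.

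The Krt17 knockout control of footpad was low in chaperones, which all comparisons with it share. At T0, 11 of 14 chaperones were below wild type, as were 45.8% of all genes, with a median log2 ratio of -0.19 against 0.02 for all genes, and their summed FPKM was 657 against 769.5. The sums at T3, T6 and T9 were 859.9, 856 and 877 in wild-type and 688, 852 and 873 in Krt17 knockout skin, so the genotypes differed at T0 and T3 and lay within a few FPKM at T6 and T9. Relative to that control all 14 chaperones were above it at T6 and at T9, as were 49.9% and 60.6% of all genes, with median log2 ratios of 0.40 and 0.39, whereas those of wild type were 0.20 and 0.24. The medians of all genes in these 4 comparisons lay between 0.00 and 0.09.

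In the Atf4-Ddit3 branch of footpad, Trib3 and Asns had the largest log2 ratios, 0.71 for Trib3 in wild type at T9 and 0.73 for Asns in Krt17 knockout at T9. Trib3 stood at 8.52, 10.6, 9.39 and 14.6 FPKM in wild-type and 9.10, 10.48, 13.3 and 9.19 in Krt17 knockout skin at T0, T3, T6 and T9. Its 2 highest columns, wild type at T9 and Krt17 knockout at T6, were also those with the highest sums of 10 neutrophil markers (3258 and 3101 FPKM, against 11.99 to 339 elsewhere) and of 9 stressed keratinocyte markers (15802 and 16012 FPKM, against 1228 to 5358). Their part in the Trib3 values was not tested. Asns stood at 30.9, 29.5, 29.3 and 28.6 FPKM in wild-type and 22.4, 22.8, 33.7 and 37.9 in Krt17 knockout skin, flat in the first and higher at the last 2 points in the second. Atf4 stood at 114, 124, 122 and 131 FPKM in wild-type and 103, 129.99, 134 and 136 in Krt17 knockout skin, and Ddit3 at 22.4, 16.4, 27.5 and 24.004 and at 19.6, 18.3, 20.4 and 23.7. Ppp1r15a stood at 20.4, 17.9, 14.7 and 15.3 FPKM in wild-type and 16.1, 16.9, 13.3 and 14.4 in Krt17 knockout skin, below its control at T6 and T9 in both. Xbp1 stood at 66.1, 78.3, 77.6 and 80.8 FPKM and at 67.3, 82.7, 84.4 and 69.7.

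The other genes in footpad stayed within narrow ranges over the 8 columns. Among the chaperones Manf ranged from 172 to 227 FPKM, Pdia3 from 86.5 to 119.9, Pdia6 from 47.9 to 78.4, Canx from 44.3 to 71.7 and Dnajb11 from 27.3 to 34.9. Pdia4 ranged from 17.04 to 27.3 FPKM, Creld2 from 16.7 to 22.5, Sdf2l1 from 10.7 to 19.2, Dnajc3 from 8.61 to 11.3, Hyou1 from 7.91 to 10.49 and Dnajb9 from 5.76 to 9.54. The largest ratios among them were those of Canx and Pdia6 in Krt17 knockout skin at T9 (0.68 and 0.64) and of Dnajb9 in wild-type skin at T3 (0.64). Of the degradation genes, Herpud1 ranged from 28.4 to 40.7 FPKM, Derl1 from 29.2 to 38.5, Derl2 from 18.2 to 25.3, Os9 from 17.8 to 22.8, Edem1 from 14.3 to 19.2, Sel1l from 7.72 to 13.4 and Syvn1 from 8.75 to 11.7. The sensors ranged from 3.93 to 5.43 FPKM for Atf6, from 3.07 to 4.73 for Eif2ak3 and from 2.09 to 3.33 for Ern1. Derl3 stayed below 1 FPKM in all 8 columns.

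Unirradiated skin of the 2 sites was set side by side in wild type, with the limit that the 2 tables may have been normalized separately. Of the 32 genes 3 passed 2-fold where 23.2% of all genes did. Chac1 stood at 92.6 FPKM in back skin and 8.78 in footpad (log2 ratio 3.26) and Pdia4 at 42.1 and 17.04 (1.26), whereas Trib3 stood at 2.27 and 8.52 (-1.54). The chaperones had a median log2 ratio of 0.75, the degradation genes 0.32 and the Atf4-Ddit3 branch -0.10, where the median of all genes was 0.41. Chac1 and Trib3, both genes with the Atf4-type element, thus stood at opposite ends of the 32.

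**Figure D4:**
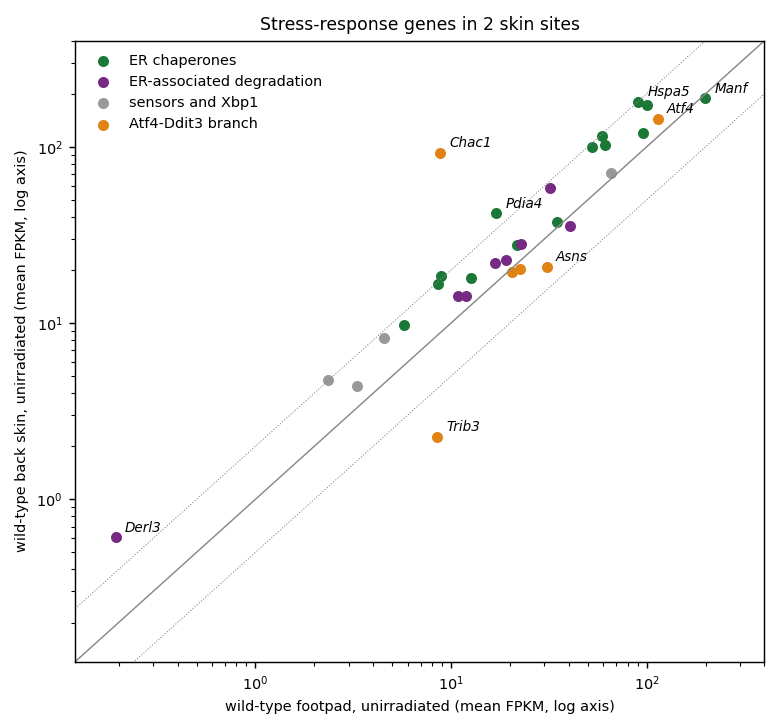
Mean FPKM of the 32 genes in unirradiated wild-type back skin (vertical, log axis) against unirradiated wild-type footpad (horizontal, log axis), 1 point per gene, with the line of equal FPKM and dotted lines at 2-fold in plain FPKM. Chac1 (92.6 against 8.78 FPKM) lies above and Trib3 (2.27 against 8.52) below the rest, and the chaperones lie on the back skin side of the line except Manf.

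Genes of the same pathways outside the 32 were described from lists of the ER and eIF2 machinery. At 24 h in wild-type back skin 5.55% of all genes passed 2-fold either way. There 0 of 25 other ER folding and oxidation genes passed, with a median log2 ratio of -0.04, 0 of 22 genes of the translocon, signal peptidase and N-glycosylation (0.03) and 0 of 21 other degradation genes (-0.10). All 3 medians lay above that of all genes (-0.20) and below that of the 14 chaperones (0.41). From 6 h to 24 h the medians of the other folding genes were 0.09, 0.01 and 0.07 in wild-type, Krt17 knockout and p53 knockout skin. Of 19 ER stress transducers and genes of transport to the Golgi, 3 fell in wild-type skin at 24 h, beside the same 5.55%. Among them were Creb3l1 (9.52 to 4.02 FPKM, -1.07) and Kdelr3 (12.6 to 5.48 FPKM, -1.07). Creb3l1 is a transducer known from collagen-making cells, and the fibroblast marker sum of the same columns went from 2141 to 740 FPKM, a relation that was not tested.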

How the data were processed

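Total RNA was extracted with Trizol and sequenced with Illumina libraries, per the labels' protocols. Per the submitters' processing notes, TopHat2 2.1.0 and Cufflinks 2.2.1 were used with mm10. The authors deposited FPKM in 2 tables, 1 per tissue, with 1 mean column for each of 17 groups of 2 samples. The annotation release, strand setting and way of averaging are not given in the sources used here. Depth is unknown, so no interval is given. Columns summed to between 854202 and 1095024 FPKM.

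The 32 genes and all lists were chosen with earlier results of these data known. Ratios were formed as log2 of (mean FPKM + 1) over that of the reference column, with no test, among genes with at least 1 FPKM in 1 column of the tissue. All 32 passed in back skin, Derl3 only through the 24 h columns of wild type and Krt17 knockout, and 31 in footpad. Symbols on several lines (116) were left out, and a 0 in a gene with a median of 5 FPKM or more was treated as missing, which touched none of the 32. Positions came from GENCODE release M21 (GRCm38). All columns were given for Hspa5, Hsp90b1, Calr, Xbp1 and the Atf4-Ddit3 branch, ranges for the others, the 3 largest and smallest ratios of a comparison where printed, and up to 2 genes with the largest ratios in each further list. Comparisons of 24 h with 6 h, of irradiated knockouts with wild type and of tissues, the 1.5-fold counts, the counts over 3 genotypes and the element search were added after the data were seen. The ratios, the rescaling and the handling of zeros were checked with known changes put into the real values, while the counts over genes were not checked in this way. Python 3.11.15, numpy 2.4.6, pandas 2.3.3 and matplotlib 3.10.9 were used.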

Additional observations from a re-analysis of the deposited data

How the results depend on the processing

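No paired analysis was possible because each column is the mean of the 2 samples of a group, and for the same reason no replicate could be left out. With a threshold of 1.5-fold in place of 2-fold, the number of the 32 genes counted in back skin became 3 at 6 h and 6 at 24 h in wild type, 8 and 4 in Krt17 knockout, and 3 and 2 in p53 knockout. For 24 h against 6 h it became 14, 11 and 10. The low Derl3 is part of the counts of wild type at 24 h and of Krt17 knockout at 6 h. It is also part of those of both genotypes for 24 h against 6 h. In footpad the number became 1 in wild type at T3 and at T9, and 1 at T6 and 5 at T9 in Krt17 knockout. With a pseudocount of 0.1 FPKM the count was 4 in wild-type skin at 24 h and 2 in Krt17 knockout skin at 6 h. After rescaling of columns the count in Krt17 knockout skin was 0 at 6 h, without Pdia6, and 1 at 24 h. Against the geometric mean of all unirradiated columns it was 0 at 6 h and 2 at 24 h. The other counts did not move by more than 1.5 times under these settings, a filter of 5 FPKM, no filter or listed zeros kept as 0. Medians of the chaperones and of the Atf4-Ddit3 branch moved by at most 0.24 log2 units, and the sign of one near 0 changed in 8 cases over these settings, among them the Atf4-Ddit3 medians of p53 knockout skin at 6 h (0.01 to -0.03 after rescaling) and 24 h (0.09 to -0.02 against the common reference). With means of 2 samples and unknown read numbers, differences below 2-fold are sizes only.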

Other observations

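Heat shock genes outside the ER, a list not described above, also had medians above 0 from 6 h to 24 h, smaller than those of the ER chaperones. The median log2 ratio of 16 cytosolic and mitochondrial heat shock genes was 0.33 in wild-type, 0.48 in Krt17 knockout and 0.32 in p53 knockout back skin. At least 2-fold higher were 1, 3 and 1 of them, beside 2.99%, 1.7% and 1.18% of all genes. From 0 to 6 h their summed FPKM did not fall in wild-type (3205 to 3274) or p53 knockout skin (3025 to 3174), but fell in Krt17 knockout skin (3399 to 3157). As a share of all FPKM in the column the sum fell in wild-type (0.375% to 0.359%) and Krt17 knockout skin (0.375% to 0.316%). The share rose in p53 knockout skin (0.313% to 0.339%). Hsph1, an exchange factor for Hsp70 proteins, went from 8.28 to 23.5 FPKM in wild-type (1.403), from 11.5 to 37.5 in Krt17 knockout (1.63) and from 11.9 to 28.5 in p53 knockout skin (1.19). At 6 h Hsph1 had stood below its control in wild-type skin, with 24.9 and 8.28 FPKM (-1.48).

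Other targets of Atf4 went several ways. Of 27 measured in back skin, 2 rose and 1 fell in wild type at 24 h, beside 5.55% of all genes past 2-fold either way, with a median log2 ratio of -0.37 against -0.20 for all genes. Atf3, a stress transcription factor, rose from 4.59 to 19.4 FPKM in wild-type skin at 24 h (1.87) and from 2.70 to 11.4 in p53 knockout skin (1.75). It was not among the 2 largest ratios of the list in Krt17 knockout skin at 24 h. Those were Mthfd2 (-0.80) and Sesn2 (0.73), both below 2-fold. Ddit4, an inhibitor of mTORC1 that p53 can also raise, rose in wild-type skin at 6 h from 74.1 to 201 FPKM (1.42). In Krt17 knockout skin at 6 h it stayed below 2-fold, with 74.1 and 130 FPKM (0.80). In footpad, Sesn2, a stress sensor that is likewise a target of both factors, rose from 3.73 to 10.7 FPKM in Krt17 knockout skin at T6 (1.31) and from 4.89 to 11.7 in wild-type skin at T6 (1.11), with 11.7 and 11.3 FPKM at T3.

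Synthetases that load amino acids onto transfer RNA, another group with known Atf4 targets, had no member past 2-fold among 20 in any radiation comparison of back skin. In these comparisons between 1.97% and 5.55% of all genes passed. Mars, which loads methionine, came nearest in wild-type and Krt17 knockout skin at 24 h, with 32.6 and 56.5 FPKM (0.78) and 31.6 and 53.9 FPKM (0.75).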
